A study of Mus musculus with 8 samples.

Results

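Small nucleolar RNA (snoRNA) genes, small Cajal body RNA (scaRNA) genes, microRNA genes and the spliced genes that carry snoRNAs in their introns were followed in the mRNA libraries of Neuro2A (N2A) cells, a mouse neuroblastoma line. The genes were chosen by symbol, namely those named Snora, Snord, Scarna, Mir or Snhg with a number, and Gas5. The group, and its division into short genes and spliced host genes, was itself selected on the FPKM and log2 changes of these same libraries, so all its levels and changes are given as descriptions with no test. Of the 16974 genes in the table, 345 belonged to it. They were 27 Snora, 41 Snord, 2 Scarna and 265 Mir genes, together 335 short genes, 7 snoRNA host genes (Gas5, Snhg3, Snhg9, Snhg12, Snhg15, Snhg16 and Snhg20) and 3 Mir host genes. The hosts were grouped by name, and Snhg20 encloses 0 of the short genes here.

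After 16 h of starvation in serum-free medium, N2A cells received 2 µM HU210, an agonist of the cannabinoid 1 receptor (CB1R), dissolved in DMSO, or drug-free DMSO, and RNA was taken after 2, 4, 6 or 8 h. A single library stood for each of these 8 conditions, made from mRNA pooled over 2 to 3 independent experiments, so the comparisons of HU210 with DMSO have no replicate check. The mRNA was purified on oligo(dT) beads and its cDNA was selected by size on a gel, above the length of most of the short genes. Levels are FPKM, fragments per kilobase of gene, scaled here between libraries by the upper quartile of gene counts, and the number of reads behind each value is unknown here. In these bulk libraries, a change in RNA per cell and a change in the share of cells that make the RNA cannot be told apart. Of the 13 neuronal and neuroblastoma markers examined, 11 had a mean FPKM of at least 1, among them Hand2 and Gata2, and their sum was 402 to 488 FPKM per library, while 6 markers of glia, microglia, fibroblasts and endothelium summed to 6.89 to 8.53.

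Box C/D snoRNAs guide the 2′-O-methylation of ribosomal and spliceosomal RNA and box H/ACA snoRNAs guide pseudouridylation, while a few of them, including U22 (Snord22), U17 (Snora73) and U8 (Snord118), act in the cleavage of the ribosomal precursor RNA. In mammals most snoRNAs lie in introns of protein-coding or noncoding host genes, and they are released by trimming of the excised intron. They carry no poly(A) tail. A microRNA gene gives a hairpin that Drosha and Dicer1 cut to the mature microRNA, which is far shorter than the fragments sequenced here, so the FPKM of a Mir gene measures longer RNA across the annotated hairpin and not the mature form.

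The short genes that stood highest in these libraries are shown by their sequence, since several share a host or a paralog, or differ in it, and reads of near-identical genes can be split between them. They are read 5′ to 3′ on the strand of the gene in mm9. In the Snord genes, capitals mark the C box letters TGATGA where these stand in the first 20 bases and the last D box, CTGA, in the last 20 bases; in the Snora genes they mark ACA in the last 10 bases. Snord22 lies at chr19:8800356-8800481 (plus strand) in an exon of an annotated Snhg1 transcript, Snord15a at chr7:106631295-106631442 and Snord15b at chr7:106628073-106628217 (both minus strand) in the ribosomal protein gene Rps3, and Snord94 at chr6:71832551-71832687 (minus strand) in an intron of Ptcd3.
Snord22: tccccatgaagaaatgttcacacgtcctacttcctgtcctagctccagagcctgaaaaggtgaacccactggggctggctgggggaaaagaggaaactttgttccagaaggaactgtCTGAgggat
Snord15a: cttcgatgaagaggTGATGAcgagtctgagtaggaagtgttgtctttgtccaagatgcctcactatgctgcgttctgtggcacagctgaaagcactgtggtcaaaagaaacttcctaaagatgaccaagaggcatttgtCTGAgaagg
Snord15b: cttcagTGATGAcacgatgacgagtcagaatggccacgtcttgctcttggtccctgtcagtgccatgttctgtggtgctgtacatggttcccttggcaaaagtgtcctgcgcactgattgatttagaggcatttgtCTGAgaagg
Snord94: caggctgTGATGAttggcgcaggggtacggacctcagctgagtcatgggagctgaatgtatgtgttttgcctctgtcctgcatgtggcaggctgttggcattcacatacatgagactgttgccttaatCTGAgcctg
Snora73a lies at chr4:131908690-131908894 and Snora73b at chr4:131908237-131908441 (both minus strand) in Snhg3, with Snora73b in an intron and Snora73a partly in an annotated exon. Snora65, at chr2:32818811-32818940 (plus strand), lies within an annotated exon of Rpl12, and Snora7a, at chr6:115757993-115758132 (minus strand), in an intron of Rpl32.
Snora73a: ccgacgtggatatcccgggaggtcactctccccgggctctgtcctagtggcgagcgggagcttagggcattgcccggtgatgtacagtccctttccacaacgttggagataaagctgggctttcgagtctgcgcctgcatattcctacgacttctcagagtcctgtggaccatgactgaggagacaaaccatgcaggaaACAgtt
Snora73b: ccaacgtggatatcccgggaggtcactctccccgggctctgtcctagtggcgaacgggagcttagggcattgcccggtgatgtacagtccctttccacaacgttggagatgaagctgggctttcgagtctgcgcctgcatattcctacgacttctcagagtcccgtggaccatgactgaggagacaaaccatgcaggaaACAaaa
Snora65: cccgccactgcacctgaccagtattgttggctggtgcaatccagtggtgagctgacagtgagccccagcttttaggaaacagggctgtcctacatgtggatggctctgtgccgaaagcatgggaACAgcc
Snora7a: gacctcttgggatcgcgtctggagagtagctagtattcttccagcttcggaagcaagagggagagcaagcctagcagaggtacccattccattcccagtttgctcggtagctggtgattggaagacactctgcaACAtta
Snora73a and Snora73b were identical at 198 of 205 aligned bases and shared a run of 56 bases, and Snord15a and Snord15b at 107 of 160 aligned positions with a longest shared run of 21 bases. Beside this, Snord22 and Snord94 were identical at 79 of 154 aligned positions and Snora65 and Snora7a at 83 of 157, with longest shared runs of 7 bases. The near identity of Snora73a and Snora73b makes their levels less certain than those of the others. How far reads were split within the Snord15 pair was not tested. All 41 Snord genes held CTGA in the last 20 bases, against 11.1% of the Snora and 8.68% of the Mir genes, and 27 of the 41 held TGATGA in the first 20, against 0% of the Snora and 0.377% of the Mir genes. Of the 27 Snora genes, 25 ended in ACA within the last 10 bases, which 7.32% of the Snord and 17.7% of the Mir genes did. Only the strand of the gene was searched, and a match is a description of the letters.

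Whether a short gene had any FPKM above 0 followed its annotated length. Of the 335 short genes, 265 were at 0 in every library that listed them, and 70 were above 0 in at least 1 library. Some of the 265 had no value at 1 or more time points. Of the 239 short genes under 100 bases, 1 (Mir669d-2) was above 0 in any library, while the share was 21 of 41 from 100 to 119 bases, 35 of 42 from 120 to 139 bases and 13 of 13 at 140 bases or more. The 631 other genes annotated as small RNA, which include snRNA and miscellaneous RNA genes, went the same way, with 0 of 113, 40 of 200, 119 of 219 and 56 of 99 above 0 in the same length classes. The part that fragment selection and alignment play in this was not tested.

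The split ran through the Snord genes by length, while the Snora genes were all on the longer side. All 27 Snora genes, of 127 to 205 bases, were above 0 in a library, and so were both Scarna genes. Of the 41 Snord genes, 10 were, with a length of 109 to 238 bases. The other 31, of 64 to 94 bases, were at 0 in all libraries that listed them, and Snord32a, Snord34 and Snord35a had no value at 4 h. Those 31 did not lie in silent genes: 30 had an enclosing gene in the table, with a mean FPKM of 8.96 to 2084 and a median of 267. Gas5 had the highest level of the 7 snoRNA hosts, yet its 3 listed guests Snord47, Snord78 and Snord80 were at 0 throughout, as were Snord1a, Snord1b and Snord1c of Snhg16. In contrast, Snora16a and Snora44 of Snhg12 and both Snora73 genes of Snhg3 were well above 0. The listed guests of Gas5 and Snhg16 lie within annotated exons of these hosts, so their 0 cannot be read as absence of the snoRNA. The motifs did not divide the Snord genes in the same way, since TGATGA stood in the first 20 bases of 20 of the 31 genes at 0 and of 7 of the 10 above 0.

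The values below are those of the 43 short genes that had a mean FPKM of at least 1 over the 8 libraries and were listed at all 4 time points, 33 of them snoRNA or scaRNA genes and 10 Mir genes. They are not all members: a further 27 short genes were above 0 somewhere but had a lower mean, or, in the case of Snord118, no value at 8 h. Of the 43 genes, 24 lay in an intron of an enclosing gene on the same strand, 17 overlapped an exon of one and 2 had none. For the genes that overlap an exon, fragments of the snoRNA and of the spliced host RNA cannot be told apart.

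Single libraries stood apart for these genes. In the HU210 library of 4 h, 13 of the 43 were at 0, against 2 to 6 in the other libraries, and 26 of the 43 (60.5%) were at or tied for their lowest value there, against 20.6% of all 11311 genes that reached this mean. With ties left out, 15 of the 43 and 2310 of the 11311 were lowest there. The DMSO library of 6 h held the highest value of 17 (39.5%) and the HU210 library of 6 h that of 7 (16.3%), against 6.04% and 14.4% of all genes. Comparisons at 4 h and levels at 6 h rest on these libraries.

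Snord22, which encodes U22 and had the highest mean of the short genes, gave an FPKM of 136, 33.7, 412 and 136 in the HU210 libraries in order of time (2, 4, 6 and 8 h) and of 244, 287, 419 and 83.9 in the DMSO libraries. Both 6 h libraries were high, the HU210 library of 4 h was the lowest, and the 2 treatments overlapped. Its log2 change, log2[(FPKM with HU210 + 1)/(FPKM with DMSO + 1)], took the values -0.84, -3.05, -0.03 and 0.69 in the same order, beside an SD of 0.99 over the 4 DMSO libraries. Relative to the average of the 4 DMSO libraries, the 8 h change was -0.70, the opposite direction.

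The U15 genes Snord15b and Snord15a, in the same host, had the next 2 highest means. Snord15b gave 96.0, 34.0, 309 and 133 FPKM with HU210 and 308, 328, 296 and 54.0 with DMSO. Its log2 changes were -1.67, -3.23, 0.06 and 1.28, with a DMSO SD of 1.25, and with the average DMSO library as the reference the last was -0.59. Snord15a gave 104, 41.0, 267 and 180.5 FPKM with HU210 and 239, 196, 238 and 125 with DMSO, so that its DMSO SD was 0.43 and its log2 changes were -1.19, -2.23, 0.17 and 0.52. Both genes were lowest with HU210 at 4 h and close together in the libraries of 6 h. Rps3, which encloses them, gave 1047, 1222, 965 and 909.7 FPKM with HU210 and 1010.3, 645, 1077 and 987 with DMSO, and its 4 h value was higher with HU210, by 0.92 on the log2 scale.

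The U17 genes, whose RNA acts in the cleavage of the 5′ part of the ribosomal precursor, were also lowest with HU210 at 4 h and highest in a 6 h library. Snora73b gave 96.4, 45.1, 171 and 109 FPKM with HU210 and 158, 149, 176 and 82.0 with DMSO, and Snora73a gave 64.4, 23.5, 124 and 62.0 with HU210 and 104, 109, 124 and 49.3 with DMSO. At 4 h their log2 changes were -1.70 and -2.16, beside DMSO SDs of 0.49 and 0.59. Snord94, a guide for the spliceosomal U6 RNA in the host Ptcd3, gave 46.0, 20.3, 94.3 and 43.4 FPKM with HU210 and 50.0, 70.0, 107 and 33.0 with DMSO, a log2 change of -1.74 at 4 h. Snord118, the U8 gene that is not inside another gene, was listed at 8.88, 6.90 and 29.1 FPKM with HU210 at 2 h, 4 h and 6 h and at 13.6, 22.7 and 36.9 with DMSO, again highest at 6 h and lowest with HU210 at 4 h.

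Snora65 and Snora7a, H/ACA snoRNA genes that lie in the ribosomal protein genes Rpl12 and Rpl32, went the other way at 4 h. Snora65 gave 85.3, 124, 52.3 and 108 FPKM with HU210 and 55.4, 20.3, 51.3 and 162 with DMSO, which is a log2 change of 2.55 at 4 h, and Snora7a gave 51.2, 56.7, 38.6 and 45.4 with HU210 and 45.5, 23.5, 44.9 and 37.2 with DMSO, a log2 change of 1.23. In both genes the DMSO library of 4 h was the lowest of the 8 and the HU210 library of 4 h was the highest of the 4 HU210 libraries. The DMSO SD of Snora65 was 1.20 and that of Snora7a 0.43.

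**Figure D1:**
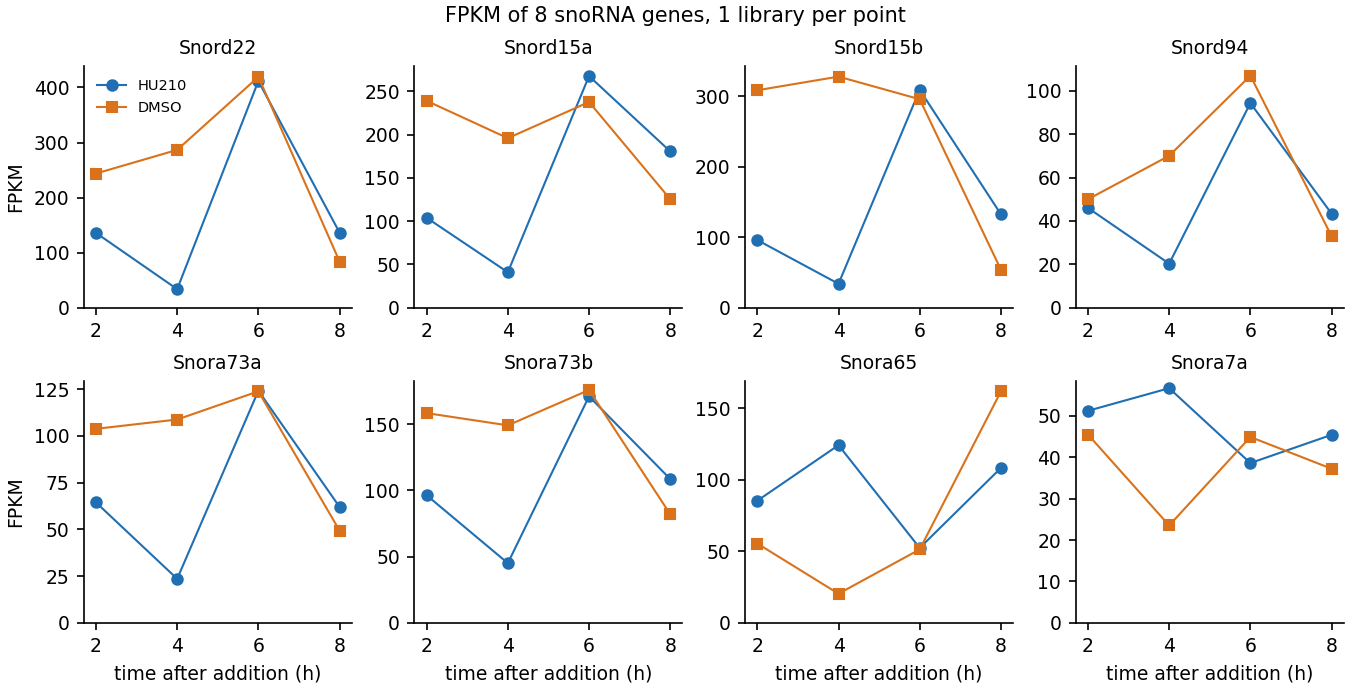
FPKM (vertical axes, starting at 0) of 8 snoRNA genes against time after addition (h) of HU210 (blue circles) or DMSO (orange squares), with 1 library per point and no error bars because no condition was repeated. Snord22, Snord15a, Snord15b, Snord94, Snora73a and Snora73b were lowest with HU210 at 4 h, at 20.3 to 45.1 FPKM, whereas Snora65 and Snora7a were lowest with DMSO at 4 h, at 20.3 and 23.5 FPKM.

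The likeness of these profiles was measured as Pearson's r of log2(FPKM + 1) with Snord22 over the 8 libraries, as a description. The points share libraries, depth and the scaling of each library. Snora73a (r = 0.99), Snora73b (0.99), Snord94 (0.97), Snord15b (0.96), Snora9 (0.93) and Snord15a (0.93) were most like it, and r was over 0.8 in 9 of the 32 other snoRNA and scaRNA genes. It was also over 0.8 in 27 of 86 other small RNA genes and in 1.5% of all 11310 genes, so the profile was not limited to snoRNA genes. The lowest values were those of Snora75 (-0.79), a snoRNA gene in the nucleolin gene Ncl, and Snora65 (-0.74). Of the 7 host genes, 0 had an r over 0.8, and Snhg20 (0.72) came nearest. Without the HU210 library of 4 h the count in the snoRNA and scaRNA genes was 10 of 32, and without both 6 h libraries it was 8.

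Summed over each class, Snord genes varied most. Their 37 genes listed at all times came to 391, 144, 1106 and 503 FPKM with HU210 and to 855, 894, 1081 and 313 with DMSO, a ratio of 7.67 between the highest and the lowest library. The 27 Snora genes came to 439, 378, 677 and 456 with HU210 and 556, 482, 746 and 465 with DMSO, a ratio of 1.97. The 7 host genes came to 533, 567, 576 and 714 with HU210 and 634, 753, 559 and 682 with DMSO, a ratio of 1.41, and their sum did not share the high level at 6 h.

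Counted over the 43 short genes, those lower with HU210 by at least 1.5-fold were more than those higher at 2 h and 4 h, and near them in number at 6 h and 8 h. At 2 h 7 were higher and 17 lower, while 0.504% of all genes with such a mean were higher and 1.45% lower. At 4 h 8 were higher and 25 lower, beside 2.77% and 8.7% of all genes. At 6 h, 5 and 7 genes were past it, beside 1.73% and 0.637%. At 8 h, 6 and 6 genes were, beside 1.17% and 0.557%. The median log2 change of the 43 genes was -0.33, -0.94, -0.18 and 0.15, and that of all genes -0.05, -0.08, 0.06 and 0.04. With the average of the 4 DMSO libraries as the reference, the medians were -0.36, -1.03, 0.33 and -0.39, so that the direction at 6 h and 8 h turned.

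The shares of the short genes lay above those of all genes in both directions, and so did their spread over the DMSO libraries. A part of the counts came from genes at 0 in 1 of the 2 libraries, whose log2 change is set by the pseudocount. Without them 14 of 30 genes were lower at 4 h and 8 higher, with a median of -0.37. The 86 other small RNA genes with such a mean gave, in order of time, 5, 11, 11 and 26 higher and 39, 48, 15 and 8 lower. At 4 h, the log2 change of all genes moved with the GC content of their exons (Spearman's rho 0.50 over 11311 genes), and over the 43 short genes rho was -0.09, with a median GC content of 48.5%, against 50.0% in all genes. With the median change of genes of like GC content subtracted, the median of the short genes at 4 h was -0.87. Without the filter on the mean, 13 of 327 listed short genes were higher and 20 lower at 2 h (0.691% and 1.33% of all listed genes), 15 and 31 of 326 at 4 h (2.16% and 6.46%), 8 and 8 of 332 at 6 h (1.58% and 0.837%) and 13 and 8 of 326 at 8 h (1.16% and 0.629%).

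Few short genes were past 1.5-fold in one direction at most time points. Scarna6, a scaRNA gene of 265 bases at chr1:89681131-89681395 (plus strand, mm9) in an intron of the autophagy gene Atg16l1, gave 2.19, 1.10, 1.82 and 1.49 FPKM with HU210 and 4.07, 3.07, 4.13 and 2.89 with DMSO. Its 4 HU210 libraries all lay below its 4 DMSO libraries, which held for 1 of the 43 short genes and for 0.371% of all genes, and 0 of the 43 had all HU210 libraries above, again beside 0.371%. Its log2 changes were -0.67, -0.95, -0.87 and -0.64 with a DMSO SD of 0.21, while Atg16l1 differed by 0.12 or less on the log2 scale at each time. Snora17, in an exon of Snhg7, gave 1.81, 1.03, 6.98 and 0 FPKM with HU210 and 4.61, 6.80, 16.1 and 1.14 with DMSO. These were the 2 short genes lower by 1.5-fold at 3 or more time points, which 0.0707% of all genes were, and 0 were higher at 3 or more, beside 0.0354%. Conversely, of the 29 short genes above 0 in all 8 libraries, 5 were past 1.5-fold higher at one time and lower at another, as were 21 of 65 such other small RNA genes and 1.67% of all genes. Both Scarna6 and Snora17 had a low FPKM, and Snora17 had a DMSO range of 3.00 on the log2 scale.

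**Figure D2:**
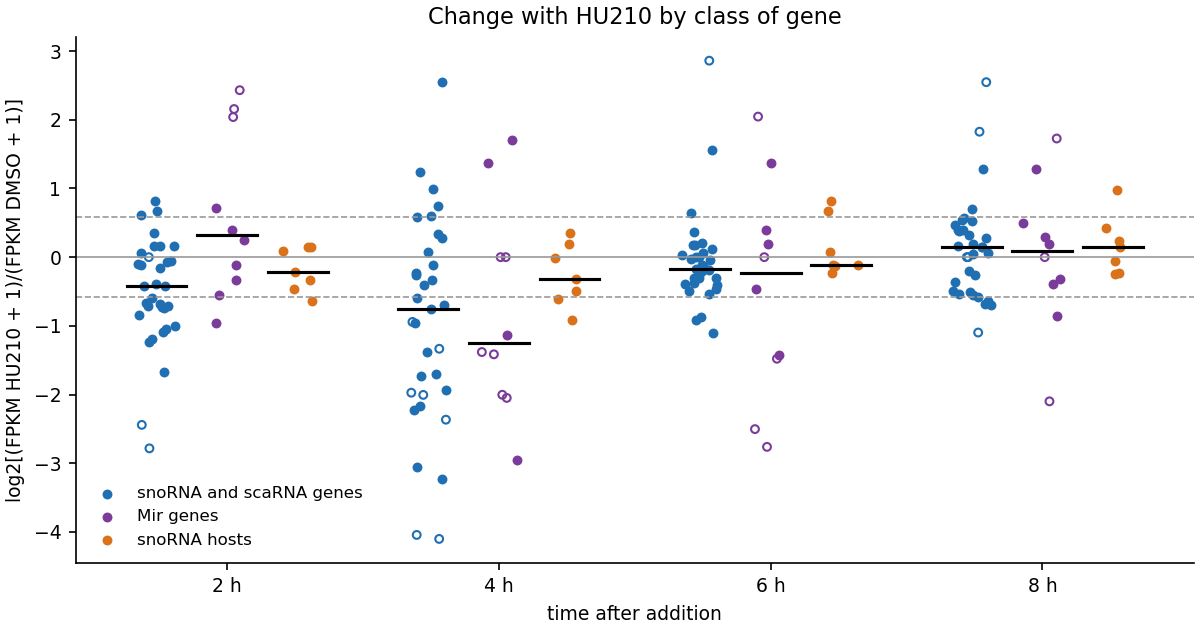
Log2 change with HU210 (vertical axis, pseudocount 1) at each time after addition for 33 snoRNA and scaRNA genes (blue), 10 Mir genes (purple) and 7 snoRNA host genes (orange), with 1 point per gene, a black bar at the median and dashed lines at 1.5-fold. Open circles are genes at 0 in 1 or both libraries, whose height depends on the pseudocount; at 4 h the median was -0.76 for the snoRNA and scaRNA genes, -1.26 for the Mir genes and -0.31 for the hosts, open circles included, and 0.12 for the 4 Mir genes above 0 in both libraries.

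Other H/ACA genes differed widely in spread and change. Snora21, in the ribosomal protein gene Rpl23, gave 5.51, 4.37, 20.8 and 5.99 FPKM with HU210 and 12.4, 7.74, 24.7 and 5.70 with DMSO, with the profile of Snord22 (r = 0.85). Snora23, in the importin gene Ipo7, was flatter, at 10.2 to 17.4 with HU210 and 12.2 to 18.3 with DMSO. Snora75 had the narrowest DMSO range of the 43 genes, 0.26 on the log2 scale, from 9.84 to 12.0 FPKM, and its log2 changes were -0.16, 0.60, -0.38 and 0.15. Its enclosing gene Ncl had a log2 change of -0.50 at 4 h. At the other end, Snora64 had the widest DMSO range: it was listed at 0, 0, 46.3 and 4.84 FPKM with HU210 and at 4.43, 15.5, 41.1 and 0 with DMSO, and it lies within an annotated exon of Rps2. Snora52, within an exon of Rplp2, was above 0 in only 2 libraries, at 16.2 FPKM with DMSO at 4 h and 6.26 with HU210 at 6 h.

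Several more H/ACA genes were highest in a 6 h library. Snora74a, in Snhg4, gave 9.61, 10.7, 20.5 and 11.3 FPKM with HU210 and 13.3, 11.7, 39.3 and 10.9 with DMSO. Snora33, in the ribosomal protein gene Rps12, gave 15.5, 15.9, 22.8 and 17.0 with HU210 and 21.0, 21.5, 33.5 and 15.1 with DMSO. Snora78, in Snhg9, gave 22.04, 7.59, 33.0 and 8.13 with HU210 and 29.2, 13.5, 47.0 and 13.7 with DMSO, and was lower with HU210 at each of the 4 times. In all 3 the DMSO library of 6 h was the highest of the 8, and the treatments overlapped.

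The other short genes named here varied in profile, and some were low. Snora31, in Tpt1, the gene of translationally controlled tumour protein, gave 14.1, 17.96, 12.9 and 4.80 FPKM with HU210 and 10.9, 10.3, 16.2 and 7.37 with DMSO, with the lowest value of each treatment at 8 h. Snora57 gave 4.89 to 7.62 with HU210 and 6.84 to 9.60 with DMSO, highest at 6 h in both treatments. It was lower with HU210 at each time, by 0.72 on the log2 scale at 2 h and 0.27 to 0.36 later. Snord17, the longest Snord gene at 238 bases, gave 5.11, 10.6, 19.2 and 9.91 with HU210 and 12.0, 9.95, 21.1 and 14.6 with DMSO. It was high in both 6 h libraries and lowest with HU210 at 2 h. Scarna8, in an intron of Haus6, gave 3.25, 0.91, 1.89 and 5.02 with HU210 and 3.08, 3.99, 2.56 and 4.30 with DMSO, so it did not share the order of Scarna6. Snora9, Snora3, Snora30 and Snora28 were listed at 0 with HU210 at 4 h and at 0.923 to 4.15 FPKM with DMSO at that time. At 6 h Snora9 stood at 19.9 FPKM with HU210 and 17.1 with DMSO, its highest value in each treatment.

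Of the 265 Mir genes, 31 were above 0 in a library and 10 had a mean FPKM of at least 1. RefSeq, in its set on GRCm38.p6, gives mature sequences for 9 of the 10, with 14 different seeds (bases 2 to 8, in capitals) in 14 sequences, so no seed was shared. The mature forms of the 2 highest genes and of a pair known from neurons and from the Mir17 cluster are printed to show what the FPKM does not measure.
miR-546: aUGGUGGCacggaguc
miR-686: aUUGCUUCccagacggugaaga
miR-7a-5p: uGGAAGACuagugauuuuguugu
miR-20a-5p: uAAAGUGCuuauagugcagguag
Mir546, at chr10:126435496-126435616 (plus strand, mm9), gave 66.7, 127, 75.2 and 44.1 FPKM with HU210 and 56.1, 38.2, 104 and 80.6 with DMSO, and it lies within an annotated exon of the phosphatase gene Ctdsp2, at 31.9 to 38.2 FPKM in all libraries. Its log2 change was 1.70 at 4 h and -0.86 at 8 h, with a DMSO SD of 0.62. Mir686, at chr14:55235514-55235622 within an annotated exon of the proteasome gene Psmb5, gave 25.7, 11.8, 37.1 and 36.7 FPKM with HU210 and 50.9, 97.8, 32.5 and 29.8 with DMSO. Of the 10 Mir genes, 2 were higher and 6 lower past 1.5-fold at 4 h with a median of -1.26, while of the 4 above 0 in both libraries 2 were higher and 2 lower, with a median of 0.12. At 4 h Mir546 and Mir686 stood in opposite order, with a log2 change of -2.95 in Mir686, and Psmb5 gave 136 FPKM with HU210 and 91.6 with DMSO.

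The other 8 Mir genes were low and uneven. Mir719, partly in an annotated exon of Nupl1, gave 13.1, 8.17, 9.48 and 17.98 FPKM with HU210 and 9.66, 19.1, 6.97 and 22.7 with DMSO. Mir214, in the noncoding gene Dnm3os, gave 3.14, 5.27, 5.31 and 10.9 with HU210 and 5.04, 1.44, 15.9 and 7.46 with DMSO, so that both extremes were DMSO libraries. Mir7-1, in an intron of Hnrnpk, was listed at 10.4, 0, 0 and 6.19 with HU210 and at 11.3, 0, 4.67 and 1.97 with DMSO, while Hnrnpk itself lay between 109.5 and 162 FPKM. Mir20a, Mir1b, Mir218-2, Mir215 and Mir1966 were each at 0 in 2 to 6 of the 8 libraries and never above 5.78 FPKM. The summed FPKM of the 254 Mir genes listed at all times was 144, 159, 149 and 137 with HU210 and 143, 173, 176 and 154 with DMSO. Without Mir546 it was 32.0 with HU210 at 4 h, 73.9 to 93.1 in the other HU210 libraries and 72.2 to 135 in the DMSO libraries. The HU210 library of 4 h was thus the highest HU210 library with Mir546 and the lowest of all 8 without it.

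The spread without treatment was taken as the SD of log2(FPKM + 1) over the 4 DMSO libraries, which differ in time and in preparation. Its median was 0.70 in the 43 short genes, 0.59 in the 33 snoRNA and scaRNA genes and 0.89 in the 10 Mir genes, while it was 0.30 in the 7 host genes and 0.15 in all 11311 genes. The DMSO values of 32 of the 43 short genes spanned at least 1 on the log2 scale, which is 2-fold, as did those of 1 of the 7 hosts and of 2.76% of all genes. In the 86 other small RNA genes the median SD was 0.59. The median over the HU210 libraries was 0.79 in the short genes and 0.25 in the hosts, so the wide spread was not particular to the controls. Among the 26 short genes that overlap no exon of an enclosing gene, the median DMSO SD was 0.44.

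By level, the median DMSO SD of the short genes was widest at 1 to 3 FPKM, at 0.81 (12 genes), and was 0.61, 0.65, 0.66 and 0.74 at 3 to 10, 10 to 30, 30 to 100 and over 100 FPKM. All genes had 0.14, 0.14, 0.15, 0.16 and 0.17 at the same levels. By length, among the 11311 genes of all types, the median SD was 0.67 under 150 bases (109 genes, 36 of them members), 0.43 from 150 to 300, 0.24 from 300 to 600, 0.18 from 600 to 1200, 0.15 from 1200 to 2400 and 0.14 above. The share of genes lower with HU210 by 1.5-fold at 2 h was 41.3% under 150 bases, 10.1% from 300 to 600 and 0.58% above 2400. The same shares at 4 h were 56.0%, 17.0% and 8.52%. Whether length itself sets these values was not tested.

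**Figure D3:**
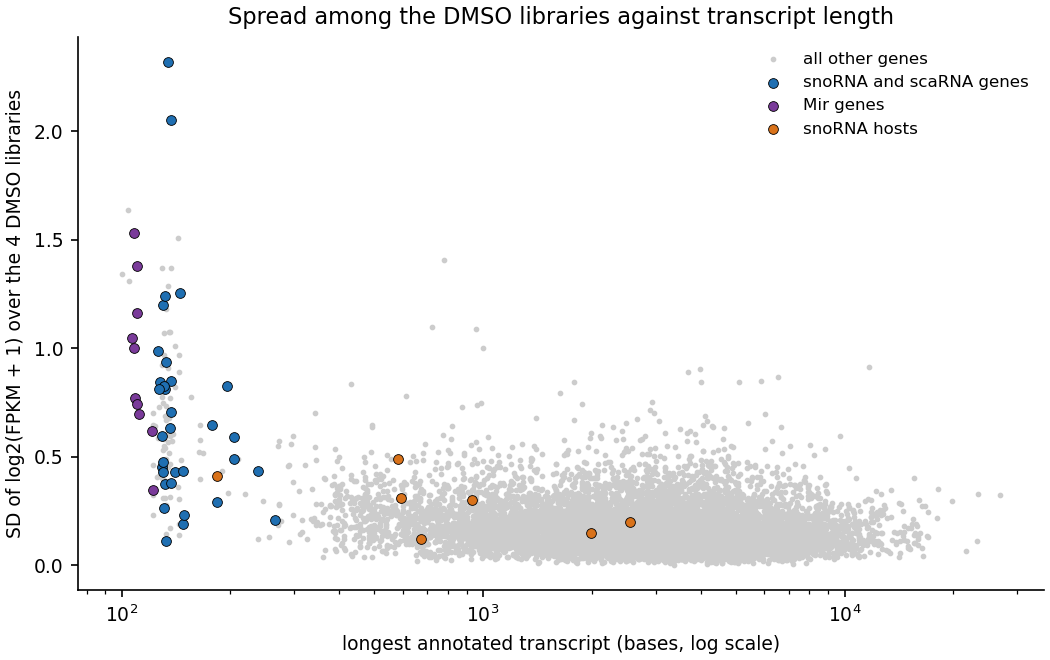
SD of log2(FPKM + 1) over the 4 DMSO libraries (vertical axis) against the longest annotated transcript in bases (horizontal axis, log scale) for the 11311 genes with a mean FPKM of at least 1, with snoRNA and scaRNA genes in blue, Mir genes in purple, snoRNA hosts in orange and all other genes in grey. The short members reach an SD of 2.32, while the 7 hosts lie between 0.12 and 0.49.

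The spliced host genes were mostly within 1.5-fold between the treatments. Gas5, a growth-arrest gene at chr1:162964553-162968670 whose introns encode many snoRNAs and whose spliced RNA is degraded by nonsense-mediated decay, gave 329.8, 359, 380.1 and 489 FPKM with HU210 and 414, 504, 362 and 442 with DMSO. Its highest value came from DMSO at 4 h and its lowest from HU210 at 2 h, and its log2 changes were -0.33, -0.49, 0.07 and 0.15, beside a DMSO SD of 0.20. Snhg12, the host of Snora16a and Snora44, gave 78.4, 85.3, 75.8 and 113 FPKM with HU210 and 91.4, 106, 82.5 and 134 with DMSO, and it was lower with HU210 at all 4 times by 0.12 to 0.31 on the log2 scale. In both treatments its highest value was at 8 h, where Gas5 also had its highest HU210 value.

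Snhg3, the host of both Snora73 genes, had the widest changes of the higher hosts. It gave 22.5, 25.5, 34.2 and 26.1 FPKM with HU210 and 35.4, 49.1, 21.0 and 30.8 with DMSO, and its first 3 log2 changes, -0.63, -0.92 and 0.68, were past 1.5-fold, beside a DMSO SD of 0.49. At 6 h, where both Snora73 genes had nearly equal levels in the 2 libraries, Snhg3 was higher with HU210. Snhg3 lies on the strand of Rcc1 and overlaps it, so the reads of the 2 genes cannot all be told apart. Snhg20 gave 23.9, 19.9, 24.8 and 25.1 FPKM with HU210 and 22.4, 31.0, 26.9 and 18.5 with DMSO, with a log2 change of -0.61 at 4 h.

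Snhg15 gave 54.5, 56.2, 38.7 and 38.5 FPKM with HU210 and 49.3, 43.7, 45.5 and 40.0 with DMSO, higher at 2 h and 4 h than later when HU210 was present. Snhg16, the host of the 3 Snord1 genes listed at 0, was the flattest, at 16.9 to 21.7 FPKM with HU210 and 15.2 to 19.4 with DMSO. Snhg9, a transcript of 183 bases that encloses Snora78, was low, at 1.78, 1.97, 5.14 and 2.95 FPKM with HU210 and 2.81, 1.99, 2.49 and 1.002 with DMSO. It was past 1.5-fold at 6 h (0.81) and 8 h (0.98), while Snora78 was lower with HU210 at both times, by 0.50 and 0.69 on the log2 scale.

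Over the 7 hosts, the numbers higher by 1.5-fold were 0, 0, 2 and 1 in order of time, beside 0.504%, 2.77%, 1.73% and 1.17% of all genes. The numbers lower were 1, 2, 0 and 0, beside 1.45%, 8.7%, 0.637% and 0.557%. In 0 of the 7 did the HU210 and DMSO libraries not overlap, beside 0.371% of all genes in each direction. Their median log2 change was -0.22, -0.31, -0.12 and 0.15. For Snhg3 and Snhg20, both lower past 1.5-fold at 4 h, the DMSO library of that time was the highest of the 4, and for Snhg20 the HU210 library of 4 h was also the lowest of its 4.

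**Figure D4:**
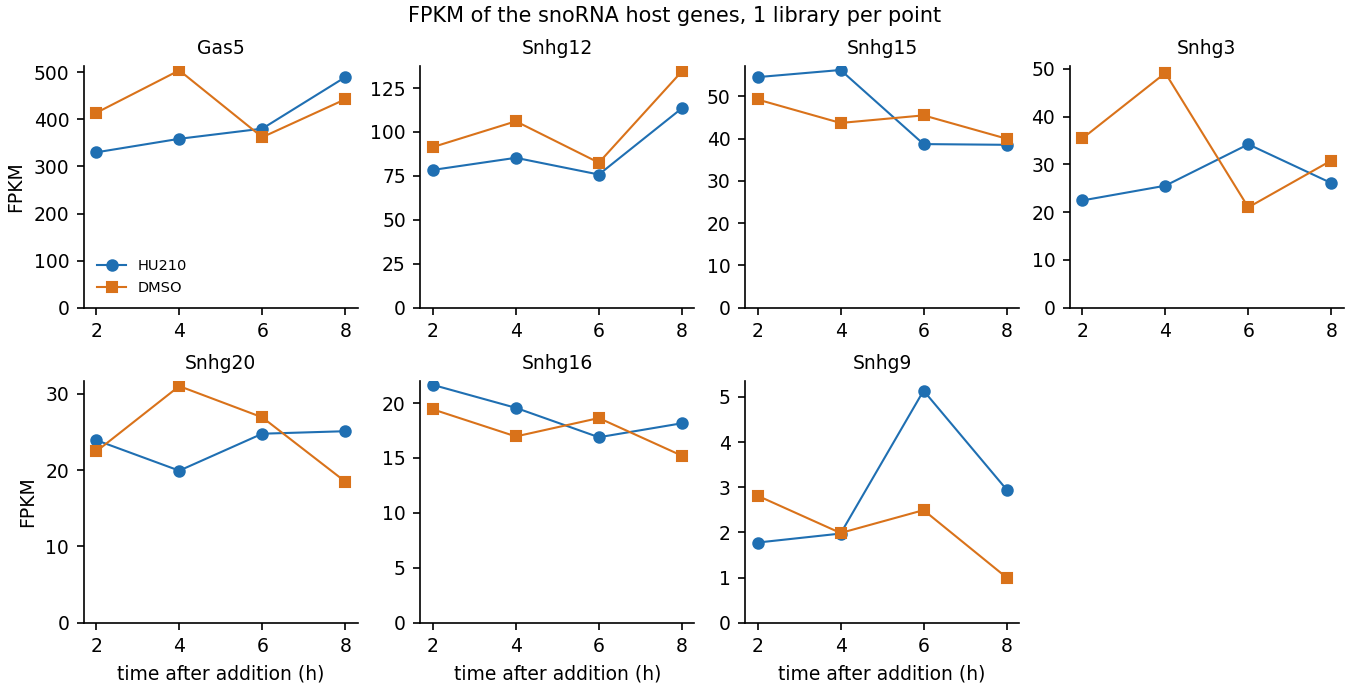
FPKM (vertical axes, starting at 0) of the 7 snoRNA host genes against time after addition (h) of HU210 (blue circles) or DMSO (orange squares), with 1 library per point and no error bars. Gas5 lay between 329.8 and 504 FPKM and Snhg9 between 1.002 and 5.14, and Snhg3 had the higher value with DMSO at 2 h and 4 h and with HU210 at 6 h.

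A snoRNA in an intron is made from the same primary transcript as its host, so the change of each short guest was set beside that of the gene that encloses it on the same strand. There were 36 such guests in 33 enclosing genes of the table. Guest and host had the same sign in 17, 21, 9 and 17 of the 36 pairs in order of time. The guest had the larger change in 30, 27, 25 and 30 of the pairs and the larger DMSO SD in 34 of 36, with medians of 0.63 for guests and 0.23 for hosts. Restricted to the 23 guests in introns, the same sign was seen in 11, 16, 5 and 10 pairs, and the larger SD was the guest's in 21, with medians of 0.43 and 0.23.

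Single pairs show the range. Snora69, in the ribosomal protein gene Rpl39, was listed at 0 with HU210 and 2.93 FPKM with DMSO at 4 h, and Rpl39 gave 31.1 and 131, a log2 change of -2.04. Snora73b and Snhg3 were both lower with HU210 at 2 h and 4 h, but differed in sign at 6 h (-0.04 and 0.68) and 8 h (0.40 and -0.23). Snord94 had a log2 change of -1.74 at 4 h and Ptcd3 one of -0.26, while Snora7a was higher by 1.23 and Rpl32 lower by 0.58 on the log2 scale. Within an exon, Snora65 and Rpl12 were both higher at 4 h, by 2.55 and 0.71, and Snord15b and Rps3 stood in opposite order at all 4 times. Snora16a, in an intron of Snhg12, and Snora44, in an annotated exon of it, had log2 changes of -0.59 and 0.99 at 4 h, so 2 guests of 1 host differed in direction.

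**Figure D5:**
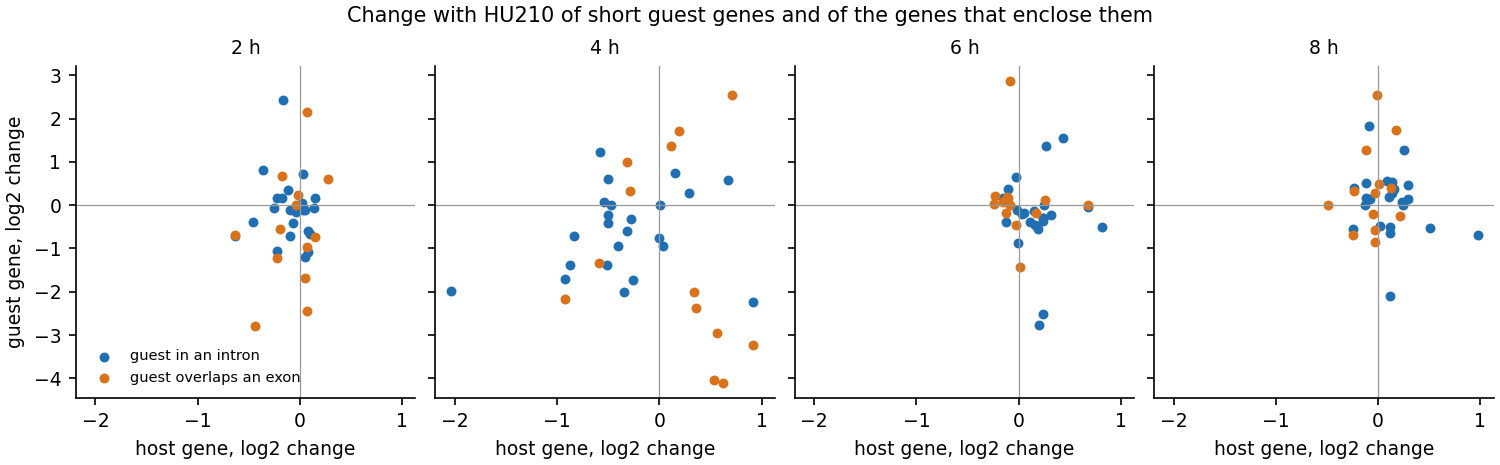
Log2 change with HU210 of 36 short guest genes (vertical axes) against that of the gene that encloses each (horizontal axes) at the 4 time points, with guests in an intron in blue and those overlapping an exon in orange. At 4 h the guests above 0 in both libraries run from -3.23 to 2.55, those at 0 in one are placed by the pseudocount, and the hosts from -2.04 to 0.92.

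The genes of proteins that bind or process these RNAs were mostly within 1.5-fold. Of the box C/D proteins, which form the methylation complex, Fbl, Nop56, Nop58 and Snu13 all stayed within 1.5-fold, from -0.37 to 0.36 on the log2 scale over the 4 times. Dkc1, the pseudouridine synthase, and its partners Nop10, Nhp2 and Gar1 lay between -0.35 and 0.33. Naf1, which assembles H/ACA particles, was the exception among 6 H/ACA genes, at 5.66, 3.61, 9.20 and 7.98 FPKM with HU210 and 5.89, 11.2, 4.37 and 4.66 with DMSO. Its log2 change was -0.05 at 2 h and then -1.40, 0.93 and 0.67, beside a DMSO SD of 0.54. Of the 7 genes of snoRNP assembly, 0 passed 1.5-fold at any time, and of the 5 Cajal body genes 1 did, the cap methylase Tgs1 at 4 h (-0.72). At 4 h, 2.77% of all genes were higher and 8.7% lower, and at the other times at most 1.73% were past 1.5-fold in either direction, so counts of 0 or 1 in lists of this size are near the background.

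Among 9 genes of snoRNA processing, the exosome genes Dis3 (-0.72) and Exosc3 (-0.61) were lower at 4 h, beside 8.7% of all genes, and 0 were past 1.5-fold at the other times. Of 14 genes of microRNA biogenesis, Ago3 was higher at 6 h (0.67), beside 1.73% of all genes, and 0 were past 1.5-fold otherwise, with Drosha at -0.19, -0.38, 0.18 and 0.04, Dgcr8 at -0.36, -0.18, -0.13 and -0.12 and Dicer1 at 0.03, -0.21, -0.14 and 0.02. Of the 10 genes of nonsense-mediated decay, which acts on several host RNAs, 0 passed 1.5-fold, and Upf1 lay between -0.12 and 0.11. The medians of these lists at 4 h ran from -0.21 in microRNA biogenesis to 0.28 in snoRNP assembly, beside -0.08 in all genes.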

How the data were processed

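Polyadenylated RNA of N2A cells was sequenced in 8 libraries, 1 for each treatment and time. Reads were mapped by the authors to mm9 with TopHat (version 2.0.8), on top of Bowtie (version 2.1.0) and SAMtools (version 0.1.7), guided by Ensembl gene models without a search for further junctions. The authors deposited FPKM from Cufflinks and Cuffdiff, with multiply mapped reads and fragment bias corrected and upper-quartile scaling. The Cufflinks version, the release of the gene models and the strand setting are not given in the sources used here. Each deposited value had 1 added, which was subtracted. The authors' log2, p-value, adjusted p and DEG columns compare the 2 libraries of a time point and were not used.

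Genes, host lists and rules were chosen with earlier results of these data known. Log2 changes used a pseudocount of 1, the study's formula. With 1 library per condition, no test was run and no p-value computed. Calls mean at least 1.5-fold. One of the marker genes is not reported here. Positions, lengths and GC content came from GENCODE vM1 on mm9, in which all 16974 gene IDs were found. Identity was scored by global alignment with 1 per match and -1 per mismatch or gap base. Named genes were all hosts, the 10 short genes with the highest mean, those with the highest or lowest changes or the widest or narrowest DMSO range, those past 1.5-fold the same way at 3 or more times, every Mir gene with a mean FPKM of at least 1, those in shared hosts and listed partners, of which those printed were picked for the text. Other short genes named, such as Snora9, Snora21, Snora23, Snora33, Snora74a, Snora78 and Snord118, and their enclosing genes were chosen after their values were seen. Alternatives were a pseudocount of 0.1, an FPKM of at least 1 in all libraries or no filter, the mean DMSO reference, centring, removal of GC medians, other folds, leaving out DMSO libraries and, added after seeing the data, subsets by exon overlap and by values at 0. Python 3.11.15, numpy 2.4.6, pandas 2.3.3 and matplotlib 3.10.9 were used. The fold counts, the SD and the removal of GC medians were tried on simulated data with a spread narrower than that of the short genes. The other steps were not simulated.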

Additional observations from a re-analysis of the deposited data

Results flagged for a closer look

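Among the 43 short genes and 7 hosts, 6 genes above 0 in all 8 libraries were past 1.5-fold in one direction at one time and in the other at another time. They were 5 of the 29 short genes above 0 throughout and 1 of the 7 hosts, beside 21 of 65 other small RNA genes and 1.67% of all genes. The difference between the 2 changes was not tested, since each rests on single libraries. In Snord15b the log2 change at 8 h (1.28) exceeded that at 4 h (-3.23) by 4.51, and in Snord22 that at 8 h (0.69) exceeded that at 4 h (-3.05) by 3.74. Mir214 differed by 2.78 between 4 h (1.36) and 6 h (-1.42), Mir546 by 2.56 between 4 h (1.70) and 8 h (-0.86) and Snora44 by 2.22 between 4 h (0.99) and 2 h (-1.23). In Snhg3, the only host among them, the changes at 6 h (0.68) and 4 h (-0.92) differed by 1.60.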

How the results depend on the processing

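With 1 library per condition, neither counting error nor variation between cultures can be given, and the reads behind an FPKM are unknown. The 2 libraries of each time were compared with each other throughout, and a fit over the 4 times with time as a block was not made, because the genes were selected on these values. The alternatives kept 175 values near the reported ones and moved 56. A count, ratio or SD was called near within 1.5-fold, and a median within the median DMSO SD of its set (0.70 for short genes). The short-gene medians at 6 h and 8 h, which turned direction against the mean of the 4 DMSO libraries, therefore count as near. For named genes, near meant within the gene's own DMSO SD, with 387 log2 changes near, 43 moved and 2 reversed. Reversed was counted only where the reported change was at least 1.5-fold, so smaller changes that turned direction are not among the 2.
Counts of short genes higher and lower past 1.5-fold depended on the set. With an FPKM of at least 1 in all libraries (27 genes), 2 were higher at both 2 h and 8 h, 12 and 3 lower at 4 h and 6 h, and 0 higher at 6 h. Without a filter, 13, 15, 8 and 13 were higher at the 4 times and the median at 4 h was 0. Restricted to genes above 0 in both libraries, 4, 3 and 3 were higher at 2 h, 6 h and 8 h, and 14 and 4 lower at 4 h and 6 h. Without exon overlap (26 genes), 4, 4, 3 and 2 were higher in order of time, 8, 13 and 3 lower at 2 h, 4 h and 8 h, and the DMSO SD was 0.44. At 2-fold, 3 and 4 were higher at 2 h and 4 h, 7 and 2 lower at 2 h and 8 h, and 0 hosts were past it. At 1.3-fold, 14 were higher at 8 h, 13 and 12 lower at 6 h and 8 h, and 2 hosts were lower at 2 h and 2 higher at 8 h.
Against the mean of the 4 DMSO libraries, 4 short genes were higher at 4 h, 13 higher at 6 h and 14 lower at 8 h, and among hosts 0 were lower at 2 h and 4 h, 1 higher at 6 h and 0 at 8 h, with 18 pairs of guest and host of the same sign at 6 h. Among the named changes of at least 1.5-fold, Snord22 at 8 h (-0.70) and Snord15b at 8 h (-0.59) turned direction under it. Smaller changes that turned are not listed here, and the cause was not tested. A pseudocount of 0.1 gave 2 hosts lower at 2 h, centring 0 at 2 h and 1 at 4 h, and removal of GC medians 0 lower at 2 h and 1 higher at 6 h. Pairs of the same sign were 11 at 2 h and at 8 h with the stricter filter (23 pairs), and 11, 5 and 10 at 2 h, 6 h and 8 h for intronic guests. Leaving out each DMSO library gave a DMSO SD of 0.52 to 0.72 for short genes and 0.18 to 0.35 for hosts, 0.18 being without that of 8 h. Without Mir546 the highest Mir sum was 4.22 times the lowest, against 1.28 with it.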

Other observations

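Sfmbt2, a Polycomb-group gene with a large intronic microRNA cluster, enclosed 35 of the short genes, and 11 of these were above 0 in a library, with means under 1 FPKM. Of these 11, all but Mir297a-3 and Mir466l are Mir669 genes, whose sequences resemble one another, so how reads were split between them is not known. The Mir hosts Mir22hg (1.71 to 3.89 FPKM) and Mir100hg (1.38 to 2.23) were low and within 1.5-fold at all 4 times, and Mir99ahg was at most 0.058 FPKM.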
